A study of Homo sapiens with 2 samples.

Results

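The genes described here encode the proteins that work with, beside or through RUNX1: its partner subunit CBFB, its relatives RUNX2 and RUNX3, the corepressor RUNX1T1 and the Groucho corepressors TLE1, TLE2, TLE3 and TLE4. These 8 genes were taken from a list of names, out of 20033 protein-coding genes. A gene was given every RUNX1 peak whose summit, the position of greatest tag coverage, lay between its ends or no more than 50 kb outside them. By this rule 11 of the 13591 peaks belonged to them.

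RUNX1, RUNX2 and RUNX3 share a Runt domain that reads the same short DNA sequence, and CBFB, which does not touch DNA itself, joins each of them and strengthens its grip. RUNX proteins can activate or repress a gene according to what they recruit. The TLE proteins are repressors of the Groucho family and bind the C-terminal end of RUNX proteins. RUNX1T1, also called ETO, is best known as the fusion partner of RUNX1 in a leukemia translocation, where it brings histone deacetylases to RUNX1 target genes.

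The binding data are from ChIPseq, the sequencing of DNA recovered with an antibody, here against RUNX1, in the human mammary epithelial line MCF10A. The study describes the parental line as not tumorigenic and reports that deletion of RUNX1 transformed it. Both libraries came from cells whose own RUNX1 had been deleted, that carried a lentiviral RUNX1 under doxycycline control and that received 1 µg/ml doxycycline for 24 hours. The study obtained its knockout cells as single colonies, and the RUNX1 in these cells is an induced copy rather than the native one. It reports that a first ChIPseq of endogenous RUNX1 gave no strong binding, possibly through low expression or low antibody affinity. Whether the peaks below are bound at native RUNX1 levels was not tested. There was 1 RUNX1 immunoprecipitate with 80338845 tags kept and 1 input DNA library with 87410774, so nothing below is replicated and samples could not be tested against each other. A list of peaks holds no expression levels, so the identity of the cells could not be checked against markers, and whether these 8 genes are expressed is not measured here.

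A peak was found for 6 of the 8 genes. CBFB and RUNX2 had 3 each, TLE3 had 2, and RUNX3, TLE1 and TLE4 had 1 each, whereas RUNX1T1 and TLE2 had 0. Among all protein-coding genes 52.1% had a peak by the same rule. The 8 genes are long, with a median of 88.9 kb against 24.1 kb for all, and among genes at least as long as the shortest of them, 49.99 kb, the share was 61.4%. The 6 of 8 is a description beside these shares, and nothing particular to the list is read from so few genes. Inside the gene itself a summit lay in 4 of the 8, compared with 18.7% of all protein-coding genes and 39.1% of those of at least that length. Within 5 kb it was again 4 of the 8, compared with 24.8% of all. The median number of peaks was 1 for the 8 genes and 1 for all genes. Scaled to the length searched, the median was 0.545 peaks per 100 kb for the 8 genes and 0.342 for all. Neither this density nor the 5 kb share was set beside long genes alone.

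**Figure D1:**
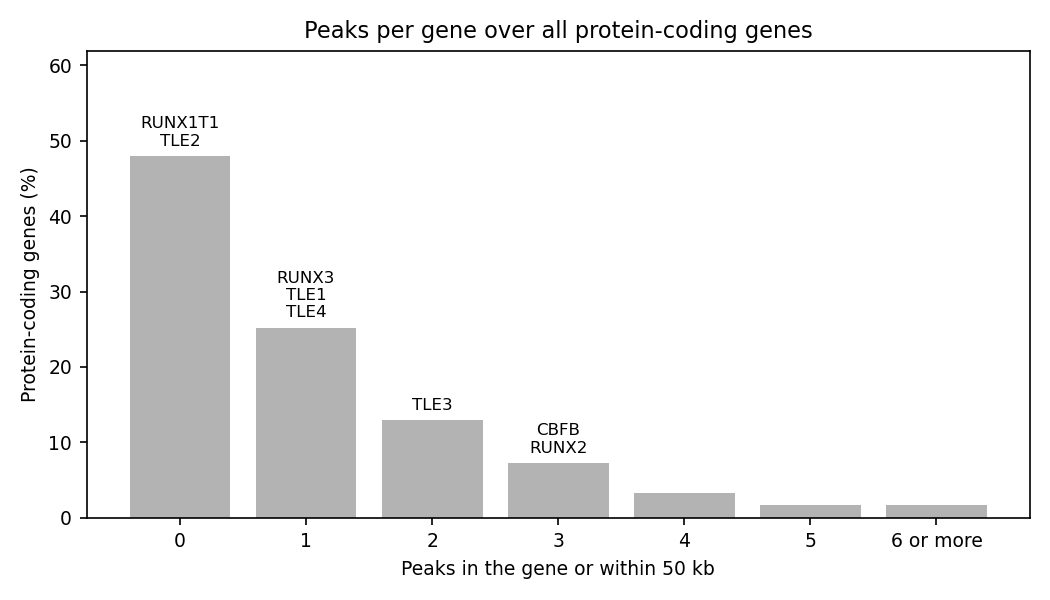
Share of the 20033 protein-coding genes (bars, in percent) by the number of RUNX1 peaks in the gene or within 50 kb, with the names of the 8 genes above the bar they fall in. RUNX1T1 and TLE2 stand with the 47.9% of genes that had 0 peaks, and CBFB and RUNX2 with the 7.25% that had exactly 3. A count of 3 or more was reached by 13.9% of all genes and by 21.2% of those of at least 49.99 kb.

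CBFB (chromosome 16, 67029149 to 67101058, positions in the hg38 build throughout) was the gene of the list with the most peaks inside its own body. All 3 of its peaks lay in the gene, which is 71.9 kb long. A count of 3 or more inside the gene was reached by 707 protein-coding genes, or 3.53%, and by 10.3% of those of at least 49.99 kb. Per length CBFB had 1.75 peaks per 100 kb, and 14.3% of protein-coding genes had a higher density.

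The first CBFB peak (67029730 to 67029808) had its summit 611 bp inside the lower-coordinate end of the gene. Its pileup, the number of extended ChIP tags stacked over the summit, was 22 (exact 95% Poisson interval 13.8 to 33.3), and its fold enrichment over the local background was 7.18, the highest of the 11 peaks. The second peak (67036651 to 67036744) lay 6.94 kb further in. It had the highest pileup of the 11, 28 tags (18.6 to 40.5), with a 6.20-fold enrichment and a −log10 q of 11.9. The third (67066691 to 67066764) lay 30.03 kb beyond the second, with 17 tags (9.90 to 27.2) and a 5.62-fold enrichment. The intervals of all 3 heights overlapped.

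The CBFB peaks were narrow. Their lengths were 79, 94 and 74 bp, the last being the shortest length that the peak caller allows and one shared by 568 peaks, or 4.18% of the list. Of the peaks of 94 bp or less, 1.59% had at least 28 tags, and of those of 79 bp or less, 1.83% had at least 22 tags. For the third, 12.3% of the peaks of 74 bp had at least 17 tags. The second peak stood on a local background of 1.67 times the genome-wide value, and the other 2 stood on the genome-wide value. What part the raised background or the narrow shape has in the count for CBFB was not tested. Exons were not told apart here, so whether the 3 peaks lie on exons of CBFB is not known. Whether all their tags reflect RUNX1 binding was not tested either. No other gene was recorded at any of the 3 summits, and the nearest other protein-coding genes were CES4A, 19.3 kb from the first summit, and PHAF1, 43.2 kb from the third.

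**Figure D2:**
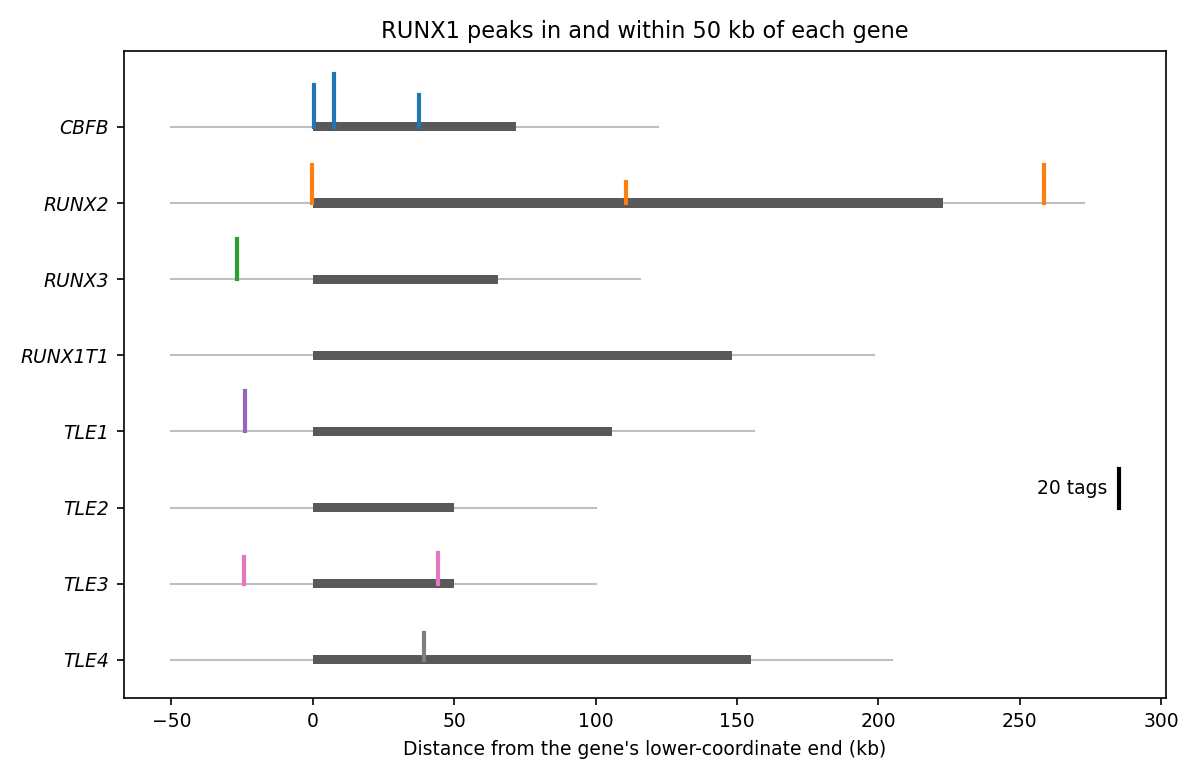
Position of the RUNX1 peaks at the 8 genes, as distance in kb from the lower-coordinate end of each gene. Dark bars are genes, thin lines reach 50 kb to either side, and the height of each coloured line is the pileup, with a scale of 20 tags at the right. The 3 CBFB peaks stand inside the gene, one RUNX2 peak stands at its lower end, and RUNX1T1 and TLE2 have none.

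RUNX2 (chromosome 6, 45328330 to 45551082), the RUNX protein of bone formation, also had 3 peaks, but only 1 of them was inside the gene. The first (45328144 to 45328229, 86 bp) was a promoter peak. Its summit lay 157 bp upstream of the outermost RUNX2 start listed in RefSeq, with 20 tags (12.2 to 30.9), a 6.56-fold enrichment, a −log10 q of 9.38 and a local background at the genome-wide value. A higher fold enrichment was seen in 21.7% of all peaks. This position is at the same time inside SUPT3H, a neighbouring gene that overlaps the RUNX2 promoter, so the peak cannot be assigned to one of these genes by position alone.

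A summit within 250 bases before to 50 bases after a listed start was uncommon. Of 15842 protein-coding genes with such an entry, 306, or 1.93%, had one. Among the 6 genes described here with an entry, it was RUNX2 alone. No entry was used for CBFB or RUNX1T1.

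The RUNX2 sequence is shown because it is the one promoter of the list with a peak, and that of RUNX3 because it holds the same letters without one. Both are read along the gene, from RefSeq on GRCh38.p14. The RUNX2 run is the 250 bases before its outermost listed start, chr6:45328080-45328329 on the plus strand. The RUNX3 run is bases 112 to 141 of the 250 before its outermost listed start, chr1:24965120-24965149 on the minus strand, and overlaps the end of the RefSeq gene interval. Capitals mark matches to TGTGGT or TGCGGT, the core read by the Runt domain, on either strand.

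RUNX2: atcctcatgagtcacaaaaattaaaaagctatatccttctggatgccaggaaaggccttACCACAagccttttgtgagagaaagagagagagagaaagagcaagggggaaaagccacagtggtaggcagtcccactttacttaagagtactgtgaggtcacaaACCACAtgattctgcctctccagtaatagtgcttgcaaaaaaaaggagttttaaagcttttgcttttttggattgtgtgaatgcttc
RUNX3: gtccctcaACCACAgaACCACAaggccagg

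In the RUNX2 run the peak covers bases 65 to 150 and the summit is at base 94, counted from 1 at the left. Both matches read ACCACA, which is TGTGGT on the other strand. One, at bases 60 to 65, touches the first base of the peak, and the other, at bases 164 to 169, lies just past its end. No match lies wholly inside the peak. In the RUNX3 run 2 copies of ACCACA stand close together, at bases 120 to 125 and 128 to 133 of its 250. The nearest RUNX1 summit to this RUNX3 start was over 92 kb away. At least 1 match was present before the start in 15.7% of 22198 protein-coding entries searched in the same way (TGTGGT in 9.36% and TGCGGT in 6.82%), and 2 or more in 1.46%. Among the 321 entries that held a summit, 54.8% had at least 1 match, and 27.4% had TGTGGT, the form seen in both runs. These matches describe the letters alone and do not show a site in use.

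Of the 12 entries for the 6 genes, 5 had a match. Besides the outermost starts of RUNX2 and RUNX3, these were 1 of the 3 listed starts of TLE3, with 1 TGTGGT, and both listed starts of TLE4, with 1 TGCGGT each. The entries of TLE1 and TLE2 and the second starts of RUNX2 and RUNX3 had 0.

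The second RUNX2 peak (45438875 to 45438976) lay inside the gene, 16.7 kb beyond the more proximal of its 2 listed starts. It was the weakest of the 11, with 11 tags (5.49 to 19.7), a 3.75-fold enrichment and a −log10 q of 2.17. A higher pileup was seen in 98.2% of all peaks. The third (45586760 to 45586945, 186 bp) lay 35.8 kb downstream of the gene, the farthest from its gene of any counted here. It had 20 tags (12.2 to 30.9) and a 4.49-fold enrichment over a background of 1.67 times the genome-wide value. The promoter peak and this distal peak thus had the same height, and the lower fold of the distal one goes with its higher background.

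RUNX3 (chromosome 1, 24899511 to 24965138), known for its roles in lymphocytes and in the gut, had no peak in the gene or within 5 kb. Its single peak (24872653 to 24872882) lay 26.8 kb downstream of the gene and was about as near to CLIC4, at 28.4 kb. It was the longest of the 11, 230 bp, and had 21 tags (13.0 to 32.1) with a 3.93-fold enrichment over a background of 2.09 times the genome-wide value. For comparison, RUNX1 itself had 19 peaks by the same rule, in cells that carried an added copy of it, and what part that copy has in the number was not tested.

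The 148.4 kb RUNX1T1 gene (chromosome 8, 91954967 to 92103385) lay in a stretch without peaks. The nearest summit was 1096 kb away. Of the 8 genes it was the farthest from any RUNX1 peak, the next being TLE2 at 258 kb.

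The Groucho corepressors had 4 peaks among them, and 3 of the 4 genes had at least 1. By the same rule a peak was found for 52.1% of all protein-coding genes. Among those of at least 49.99 kb the share was 61.4%, and nothing particular to the family is read from 4 genes. TLE3 (chromosome 15, 70047790 to 70097917) had 2. One lay in the gene (70092145 to 70092223, 79 bp), 5.72 kb from the outermost listed start and 2.59 kb from the innermost of 3, with 16 tags (9.15 to 26.0) and a 4.74-fold enrichment. The other (70023416 to 70023500, 85 bp) lay 24.3 kb downstream, inside a long non-coding RNA gene, with 14 tags (7.65 to 23.5) and a 4.68-fold enrichment. The nearest other protein-coding genes were RPLP1, 567 kb from the downstream summit, and UACA, 562 kb from the one in the gene.

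TLE1 and TLE4 are both on chromosome 9, with 1857 kb between them. TLE4 (79571965 to 79726882) had 1 peak inside the gene (79611155 to 79611263, 109 bp), 39.2 kb from its outermost start, with 14 tags (7.65 to 23.5) and a 4.68-fold enrichment. TLE1 (81583683 to 81689547) had no peak in its body. Its single peak (81559862 to 81560004, 143 bp) lay 23.8 kb downstream, with 21 tags (13.0 to 32.1) and a 3.93-fold enrichment over a background of 2.09 times the genome-wide value. The interval between TLE4 and TLE1 held 6 peaks in all, 5 of them over 50 kb from both genes. The next summit outside the 50 kb limit was 90.4 kb from TLE1 and 1052 kb from TLE4.

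TLE2 (chromosome 19, 2997644 to 3047635) had 0 peaks within 50 kb, or within 100 kb. It lies between 2 other members of its family, TLE6 and TLE5. With 50 kb added at both ends, these 3 genes span 186 kb, in which there were 0 peaks, against 322 on the whole of chromosome 19. As their windows overlap, the 3 zeros are not separate observations.

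Seen together, the 11 peaks were of ordinary height. The median pileup was 20 tags, with a range of 11 to 28, against a median of 18 and quartiles of 15 and 23 for the whole list. Of the 11, 6 lay above the median of the list, and 1, the second CBFB peak, lay above its upper quartile. The median fold enrichment was 4.68 against 5.06, and the median −log10 q was 5.00 against 5.90. The Poisson intervals of all 11 heights overlapped, as the lowest upper bound was 19.7 and the highest lower bound 18.6, so the order of the peaks by height is uncertain. Overlap of intervals does not show that the heights are equal.

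**Figure D3:**
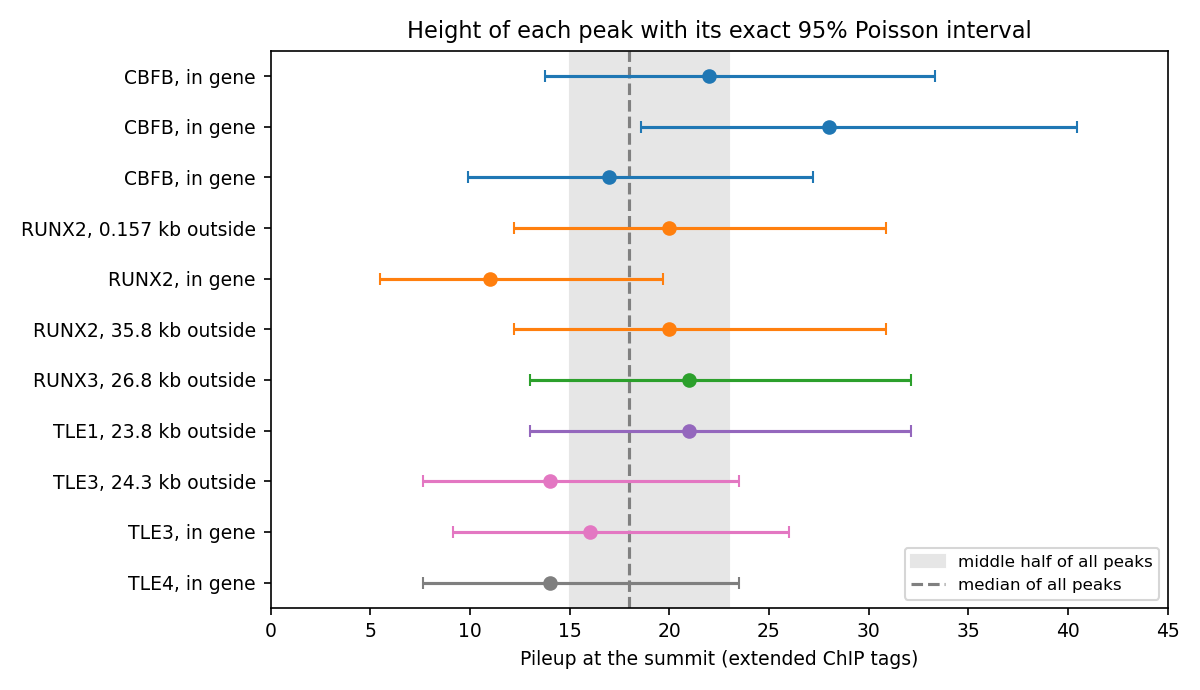
Pileup at the summit of the 11 peaks, in extended ChIP tags, with exact 95% Poisson intervals (bars, counting error only). The shaded band runs between the quartiles of all 13591 peaks, 15 to 23 tags, and the dashed line is their median of 18. The second CBFB peak, at 28 tags, is the one point to the right of the band.

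In length the peaks of these genes were on the short side. Their median was 94 bp against 153 bp for the whole list, 9 of the 11 were shorter than that median, and 7 were under the lower quartile of 107 bp. All 3 CBFB peaks, both TLE3 peaks, and the RUNX2 promoter and gene-body peaks made up these 7. The longer ones were the distal peaks of RUNX2, RUNX3 and TLE1 and the peak within TLE4. The distal peaks of RUNX2, RUNX3 and TLE1 had 20, 21 and 21 tags and fold enrichments of 4.49, 3.93 and 3.93. The distal peak of TLE3 differed from them, with 85 bp, 14 tags and a 4.68-fold enrichment.

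**Figure D4:**
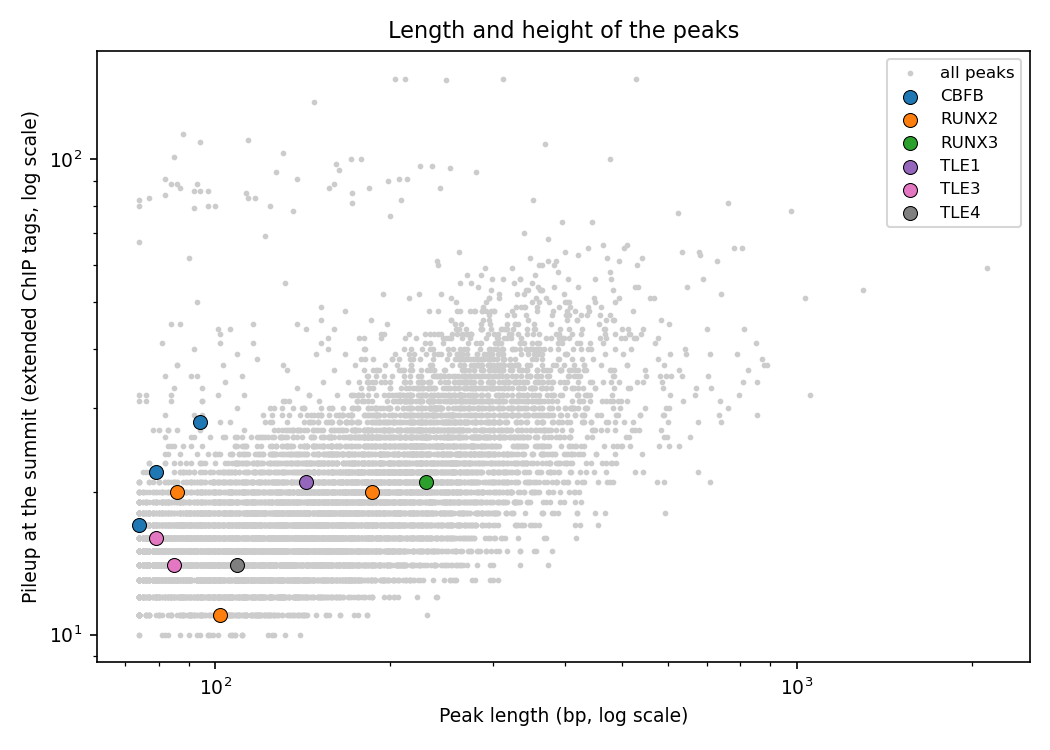
Peak length (bp) against pileup (extended ChIP tags), both on log scales, for all 13591 peaks (grey) and the 11 peaks of the genes described (coloured by gene). The CBFB peaks of 79 and 94 bp lie at the upper left edge of the cloud, with 22 and 28 tags, and RUNX3 has the longest of the coloured peaks, at 230 bp.

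The local background stood at the genome-wide value of 2.20 tags, to within 1%, for 6 of the 11 peaks, compared with 39.5% of the list. The highest background was 2.09 times that value, at RUNX3 and TLE1. By place, 6 of the peaks lay inside one of the 8 genes, 1 lay just upstream of RUNX2 and 4 lay downstream of the gene they were counted for. The 50 kb limit itself divided no close cases. The farthest summit counted was the one 35.8 kb from RUNX2, and the nearest one left out was 74.5 kb from TLE3, with 12 tags and a 4.01-fold enrichment.

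Only CBFB and RUNX2 had a peak with a fold enrichment of at least 5. There were 4 such peaks among the 11, all 3 at CBFB and the promoter peak of RUNX2, whereas 50.6% of the whole list reached that value. At that limit the number of genes with a peak fell from 6 to 2 of the 8, with RUNX3, TLE1, TLE3 and TLE4 at 0, and the share of all protein-coding genes fell from 52.1% to 35.1%.

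Other genes that work with RUNX proteins were taken from a separate list, of which 15 are given here. A peak was found for 4 of these by the same rule, against the 52.1% of all protein-coding genes. The median length of the 15 genes was 86.4 kb, close to that of the 8. SIN3A, a scaffold for histone deacetylases, had 1 peak of 14 tags (7.65 to 23.5), 0.938 kb outside the gene. Of the relatives of RUNX1T1, CBFA2T3 had 2 peaks in the gene, of 17 and 15 tags, and CBFA2T2 had 1, of 15 tags (8.40 to 24.7). KAT6A, a histone acetyltransferase, had 1 peak of 12 tags (6.20 to 21.0) in the gene. TLE5, TLE6, NCOR1, HDAC1, HDAC2, HDAC3, SUV39H1, EP300, CREBBP, HIPK2 and PRMT1 had 0. Of the 15, CBFA2T3 alone had a peak with a fold enrichment of at least 5, compared with 35.1% of all protein-coding genes. The CBFA2T2 peak and the 15-tag peak of CBFA2T3 fell just short of that limit, at 4.997.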

How the data were processed

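There was 1 RUNX1 ChIPseq and 1 input library from MCF10A cells, per the labels. The authors called peaks with MACS 2.1.2 (q limit 0.05, 54 bp tags lengthened to 74 bp, duplicates beyond 1 tag per position and strand removed, larger library scaled to the smaller). The submitters' processing notes name Bowtie2 and hg38. The pileup deposited is a signal that counts lengthened ChIP tags at the summit and cannot pass 148. The fold enrichment the authors deposited divides pileup by local background, each plus 1, a ratio from which the background was recovered here. The deposited −log10 q values rank peaks within the list.

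Gene intervals and promoter sequences came from the RefSeq tables of GRCh38.p14, in which all 8 symbols were found. The gene table has no exons, so exons, introns and UTRs were not told apart. Strand was taken from the promoter entries, which 6 of the 8 genes had. Protein-coding genes on assembled chromosomes (20033) gave the background shares. Intervals are exact 95% Poisson intervals of the tags and cover counting error only. No p-value was computed, as there was 1 library of each kind and the genes and lists were chosen with earlier results of these data known. Genes named are the 8, RUNX1, 15 cofactors (1 more on the list is not reported here), and the genes nearest to each peak. Assignment was tested on simulated peaks. Python 3.11.15, pandas 2.3.3, numpy 2.4.6, scipy 1.17.1 and matplotlib 3.10.9 were used. Alternatives were a stricter q (0.01), a minimum 5-fold enrichment, the gene body alone, 5 or 100 kb on either side, overlap of any base, and merging of peaks within 1 kb. The share among long genes and the promoter windows were added after seeing the data.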

Additional observations from a re-analysis of the deposited data

How the results depend on the processing

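Of 33 alternatives over 5 counts and values, 24 kept them within 1.5 times, or, for the median pileup, within its counting interval. With a fold enrichment of at least 5 the genes with a peak fell from 6 to 2, their peaks from 11 to 4 and the cofactor genes with a peak from 4 to 1, while protein-coding genes with a peak fell from 10432 to 7037. With the gene body alone the peaks fell to 6, and protein-coding genes with a peak to 3755. With 5 kb on either side these were 7 and 4962, and with 100 kb the peaks rose to 18. The direction of all these changes follows by construction, as weaker peaks are dropped or the window changes, but their size does not. Counting summits at listed promoters alone, added after seeing the data, left 1 gene, RUNX2. In the 7 other alternatives CBFB had 3 peaks, except with 100 kb, which gave 4, and RUNX1T1 and TLE2 had 0. No paired analysis was possible because the single ChIP library has no second one to pair. With 11 to 28 tags a peak, heights are known only to their counting intervals, and at this depth a weaker site at RUNX1T1 or TLE2 may have gone undetected.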
